A study of Mus musculus and Homo sapiens with 20 samples.

Results

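H2AK119ub, a monoubiquitin mark on a lysine of histone H2A, was mapped by CUT&Tag in Lin- KIT+ bone marrow cells (HSPCs) and mouse embryonic stem (mES) cells, and the regions described here are those with the mark in WT HSPCs and no called peak of it in WT mES cells. They were chosen by the peak lists themselves, with no KO list in the rule. A region was taken where the peaks of both Tet2-WT HSPC H2AK119ub libraries overlapped over 1 kb or more on an autosome and no peak of either Tet2-WT HSPC H3K27me3 library and of either Tet2-WT mES H2AK119ub library touched it. Of 24737 such shared intervals of 1 kb or wider, 591 (2.39%) met the rule, and they spanned 828 kb. They are called HSPC-only regions below, a name that refers to these WT lists and not to the KO libraries. Among the other intervals, 4726 were also marked in mES cells without H3K27me3, 486 carried H3K27me3 without the mark in mES cells, and 18934 had both.

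The study asked how loss of TET2, an enzyme that oxidizes 5-methylcytosine, acts on H2AK119ub and H3K27me3. WT HSPCs came from C57BL/6 mice and KO HSPCs from Tet2-/- mice backcrossed to C57BL/6, both aged 6–8 weeks and of both sexes, and were enriched by magnetic beads, so that they hold a mixture of progenitors. The WT and Tet2-/- mES cells were established lines kept with LIF and inhibitors of GSK3 and MEK. Each combination of cell type, genotype and mark had 2 libraries, and the labels do not say whether these came from separate mice or cultures. A p-value thus measures only the spread between these libraries, which may be technical. The 16 mouse lists held 80835 to 166255 autosomal peaks and covered 5.78% to 10.8% of the known autosomal sequence. Read counts and peak heights were not used here, so depth behind a region is unknown. A region without a peak is one where none was called, and whether a peak is missing in fewer cells or weaker in each cell cannot be told apart.

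H2AK119ub is placed by the RING1A/B ligases of Polycomb repressive complex 1 and removed by the PR-DUB complex around BAP1. PRC2 places H3K27me3, the other Polycomb mark, and each mark can help to recruit the complex that writes the other. The pair is best known at CpG-rich promoters of developmental regulators, whereas H2AK119ub without H3K27me3 also occurs at low level across gene bodies and between genes. Lin- KIT+ cells include blood stem cells and early myeloid and erythroid progenitors. The deposited peak lists name no transcript, so expression of blood markers could not be read from them.

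The sequences of 6 regions are given as examples, picked by width, KO coverage or position and not as typical of the set. For each, 300 bases at the centre are printed from the plus strand of GRCm38 (mm10), read from RefSeq, in lower case. Capitals mark a match to 1 of 6 short motifs searched on both strands, AGATAA of the GATA factors, CCGGAAG of the ETS factors, GAGGAAGT of PU.1, TGTGGTT of the RUNX factors, TGACTCA of AP-1 and the E-box CACGTG. The first is the widest region, in Cdc37. Those in Dnaaf5 and Dot1l are the widest that remained under peaks over their whole length in both KO HSPC libraries, and those in Nadk and Crebl2 the widest without a covered base in either. The last lies at the shared start of Tbp and Psmb1. The Cdc37 and Tbp regions were chosen after their values were seen.
Cdc37 region, chr9:21145970-21146269: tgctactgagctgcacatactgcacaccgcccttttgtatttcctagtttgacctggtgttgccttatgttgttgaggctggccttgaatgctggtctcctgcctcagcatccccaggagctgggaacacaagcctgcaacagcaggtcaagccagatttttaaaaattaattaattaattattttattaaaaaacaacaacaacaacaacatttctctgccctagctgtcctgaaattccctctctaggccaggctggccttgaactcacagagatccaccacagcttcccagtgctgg
Dnaaf5 region, chr5:139160795-139161094: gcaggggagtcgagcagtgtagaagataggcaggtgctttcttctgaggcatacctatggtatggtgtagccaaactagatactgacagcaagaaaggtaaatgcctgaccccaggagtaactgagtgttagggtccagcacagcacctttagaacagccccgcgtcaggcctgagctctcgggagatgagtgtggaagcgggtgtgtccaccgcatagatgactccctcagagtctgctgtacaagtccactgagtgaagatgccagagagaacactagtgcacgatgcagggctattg
Dot1l region, chr10:80776993-80777292: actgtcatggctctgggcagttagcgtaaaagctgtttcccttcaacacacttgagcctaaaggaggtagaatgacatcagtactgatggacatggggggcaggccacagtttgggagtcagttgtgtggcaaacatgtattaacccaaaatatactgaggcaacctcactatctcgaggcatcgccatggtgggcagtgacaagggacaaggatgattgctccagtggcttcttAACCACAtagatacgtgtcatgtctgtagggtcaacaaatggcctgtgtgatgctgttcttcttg
Nadk region, chr4:155571860-155572159: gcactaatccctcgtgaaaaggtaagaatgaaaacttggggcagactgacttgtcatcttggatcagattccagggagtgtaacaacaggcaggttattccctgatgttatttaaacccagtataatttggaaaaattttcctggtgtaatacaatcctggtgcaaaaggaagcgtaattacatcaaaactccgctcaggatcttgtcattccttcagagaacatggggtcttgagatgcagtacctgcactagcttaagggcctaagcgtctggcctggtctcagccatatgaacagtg
Crebl2 region, chr6:134847017-134847316: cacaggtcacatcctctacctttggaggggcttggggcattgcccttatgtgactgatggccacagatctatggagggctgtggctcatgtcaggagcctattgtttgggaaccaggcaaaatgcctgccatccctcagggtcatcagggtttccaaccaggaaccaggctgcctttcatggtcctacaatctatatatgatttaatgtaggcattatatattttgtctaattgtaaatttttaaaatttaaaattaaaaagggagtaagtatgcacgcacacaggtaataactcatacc
Tbp and Psmb1 region, chr17:15499354-15499653: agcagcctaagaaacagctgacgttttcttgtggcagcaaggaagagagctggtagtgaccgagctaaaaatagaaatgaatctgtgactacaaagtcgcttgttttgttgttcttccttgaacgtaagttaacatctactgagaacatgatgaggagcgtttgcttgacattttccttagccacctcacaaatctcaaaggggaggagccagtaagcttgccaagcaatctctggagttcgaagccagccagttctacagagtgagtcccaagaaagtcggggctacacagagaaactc
The 6 centres held 1, 7, 4, 4, 1 and 7 CpG dinucleotides in the order printed. A single motif match was found among the 6, to the RUNX motif in the Dot1l region, and no match says only that these letters are not in this window.

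HSPC-only regions were short, mostly inside genes and lower in CpG than the other classes. Their median width was 1280 bp (quartiles 1116 and 1518 bp, largest 4285 bp), against 1922 bp for intervals with H3K27me3 and the mES mark, and 49 of the 591 reached 2 kb. GC content was 50.4% over all bases, above 41.9% for the autosomes, and CpG occurred 14.3 times per kb against 8.51 on the autosomes, 16.7 in intervals with the mES mark alone and 25.9 in those with both marks. The ratio of observed to expected CpG exceeded 0.6, a level typical of CpG islands, in 15 regions (2.54%). It did so in 2.07% of intervals with the mES mark alone, close to the HSPC-only share. In intervals with H3K27me3 but not the mES mark it did so in 21.6%, and in those with both in 15.8%. Repeats, as soft-masked in the reference, made up 18.3% of HSPC-only bases and 33.5% of the autosomes. They made up 13.6% of bases in intervals with the mES mark alone, 19.5% with H3K27me3 alone and 12.7% with both. These values describe the set and were not tested.

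By annotation (GENCODE vM21), 38 regions (6.43%) lay within 1 kb of the start of a protein-coding gene. A further 260 touched an exon, 167 lay in introns, 19 touched a gene of another type only and 107 were intergenic. Introns of protein-coding genes held 56.9% of the bases, coding sequence 8.35% and untranslated regions 7.85%, and 460 regions (77.8%) touched a protein-coding gene. By bases, 24.1% of the regions lay outside protein-coding genes, against 28.5% of intervals with the mES mark alone and 31.25% of all 24737 intervals. Protein-coding genes span 41.4% of the autosomes, a share of bases and not of regions touched. The promoter share was close to that of intervals marked in mES cells without H3K27me3 (7.58%). It was 23.5% for intervals with H3K27me3 but not the mES mark and 35.8% for those with both. The median distance to the nearest protein-coding start was 7951 bp, 303 regions lay beyond 1 kb but within 10 kb, and 40 lay over 50 kb away. Of the 167 intronic regions, 102 (61.1%) touched a first intron, and this share was 60.7% to 66.6% in the other classes.

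**Figure D1:**
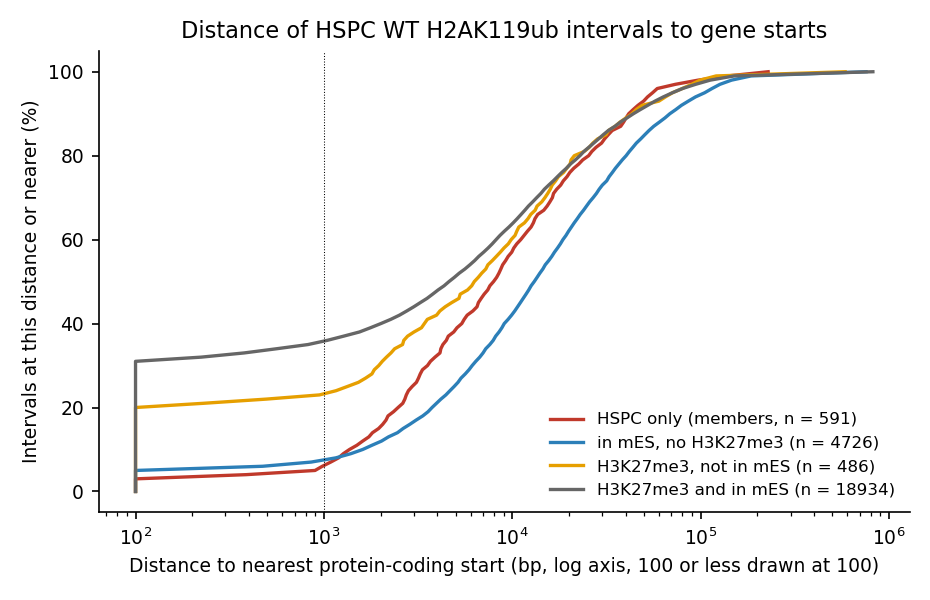
Cumulative share of intervals (%) by distance to the nearest protein-coding gene start (bp, log axis), for the 591 HSPC-only regions in red and the 3 other classes of WT HSPC H2AK119ub intervals. At 1 kb (dotted line) both classes without H3K27me3 are at 6.43% and 7.58%, below the classes with H3K27me3 at 23.5% and 35.8%.

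Of the 10 widest regions, 6 touched an exon, 3 lay in introns and 1 was intergenic. The widest of all, chr9:21143978-21148262 (4285 bp), was in an intron of Cdc37, which encodes a co-chaperone that loads kinases onto HSP90, and was covered to 57.6% and 53.2% in KO replicates 1 and 2. A region of 3298 bp in Myh9, the gene of a non-muscle myosin heavy chain (chr15:77795084-77798381), was covered to 77.8% and 100%. In Tle3, a Groucho-family corepressor, the region at chr9:61411479-61414768 was covered to 70.4% and 100%. These 3 regions remained over 50% of their length in both KO libraries.

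The KO libraries differed at some of the next regions. The region in Itga5, an integrin subunit gene (chr15:103344558-103347749, 3192 bp), was covered to 20.1% in KO replicate 1 and 85.3% in KO replicate 2. That in Bag6, a chaperone gene (chr17:35138997-35142048, 3052 bp), was covered to 57.6% and 44.8%. In Kmt2d, which encodes a histone H3K4 methyltransferase (chr15:98841912-98844907, 2996 bp), the values were 64.3% and 47.1%. All 3 thus passed 50% in 1 of the 2 KO libraries. An intergenic region 1607 bp from the start of Ccdc107 (chr4:43488324-43491293, 2970 bp) showed the same split, at 54.9% and 44.1%. The last 3 of the 10 widest passed 50% in both KO libraries. Brd2, which encodes a BET-family reader of acetylated histones (chr17:34114445-34117397), was covered to 72.7% and 94.2%. Banp, the gene of a nuclear DNA-binding protein (chr8:121952526-121955394), was covered to 97.7% and 74.9%. Slc45a4, a solute carrier gene (chr15:73632698-73635514), was covered to 73.4% and 72.7%.

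Across all 591, 59.6% ± 0.516 (SD, n = 2) of the bases were under KO HSPC H2AK119ub peaks, with 60.0% in replicate 1 and 59.2% in replicate 2. Coverage of at least 50% in both KO libraries was seen for 244 regions (41.3%). A further 215 passed 50% in 1 library only, 111 were touched without reaching 50% in either, and 21 (3.55%) had no covered base in either. Over all 24737 intervals, 84.5% passed 50% in both KO libraries and 0.392% had no covered base in either. Against this background the share kept was lower, and the share without coverage higher, among the HSPC-only regions. The other classes fell between, at 65.7% kept for intervals with the mES mark alone, 65.8% with H3K27me3 alone and 91.1% with both. The 591 were chosen where both WT libraries had a peak, so coverage in WT is 100% by the rule and no test of KO against WT is given.

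**Figure D2:**
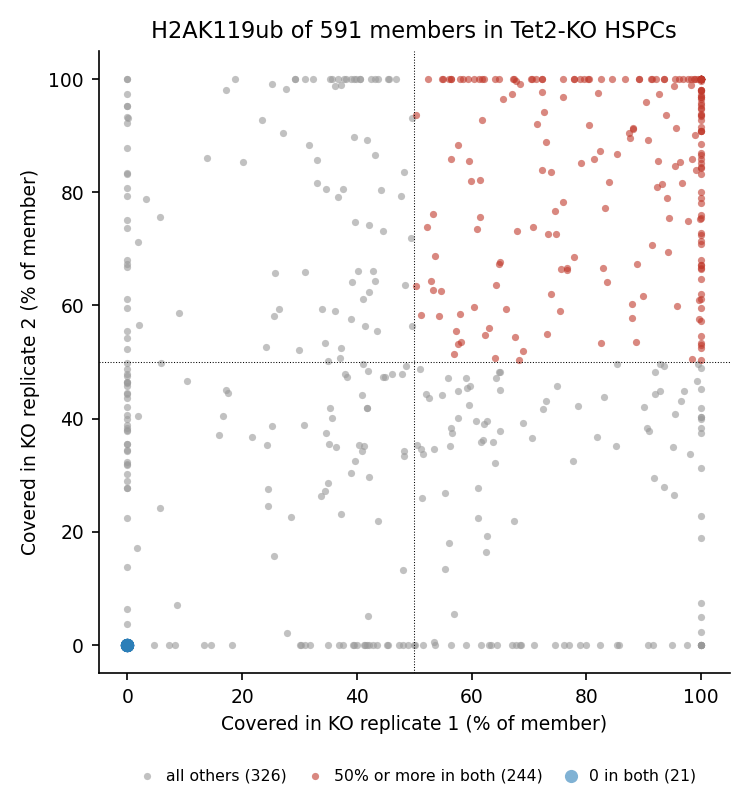
Share of each of the 591 HSPC-only regions (%) covered by H2AK119ub peaks in Tet2-KO HSPC replicate 1 (x axis) and replicate 2 (y axis), 1 point per region. The 244 red points passed 50% (dotted lines) in both libraries, and 21 blue points lie on top of each other at 0. Many grey points lie on an axis, with no coverage in 1 library, or on an edge, covered over their whole length in 1 library.

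The order of the classes was much the same within groups of equal width. Among intervals of 1 to 1.25 kb, 41.0% of 271 HSPC-only regions were kept in both KO libraries, against 62.5% with the mES mark alone, 65.2% with H3K27me3 alone and 86.3% with both. At 2 kb or wider the values were 55.1% of 49 regions, 78.8%, 78.9% and 96.2%. None of the HSPC-only regions of 1.5 kb or wider lacked coverage in both KO libraries, and the widest without it measured 1399 bp. Across the threshold of the rule, 43.3% of 150 regions of 900 to under 1000 bp and 43.3% of 127 regions of 1000 to under 1100 bp were kept, while 10.7% just under the threshold and 5.51% just over it had no coverage in either KO library.

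**Figure D3:**
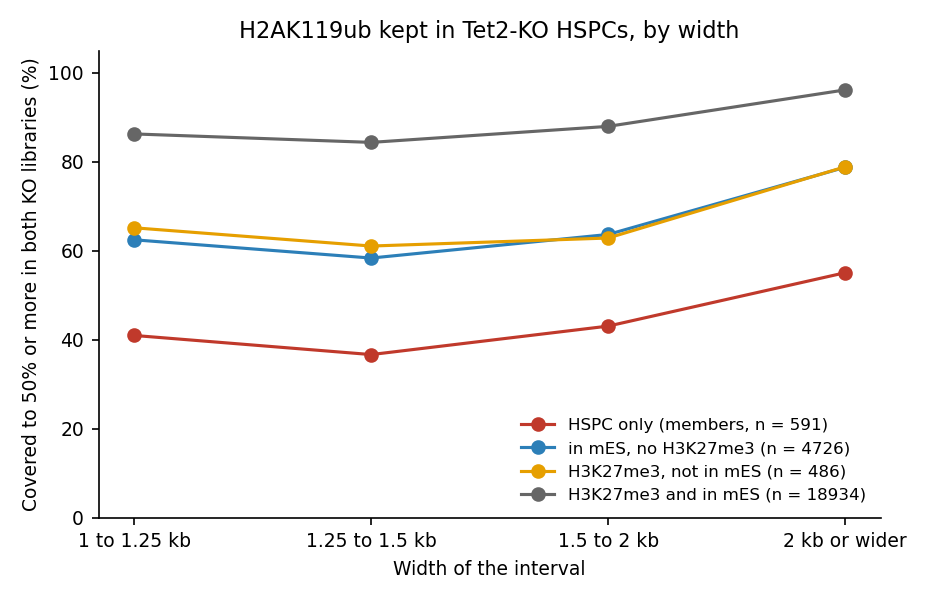
Share of intervals (%) covered to 50% or more in both Tet2-KO HSPC H2AK119ub libraries, by width of the interval, for the 4 classes (n in the legend is the number of intervals over all widths). The HSPC-only regions (red) lie lowest in each width group, from 36.7% at 1.25 to 1.5 kb to 55.1% at 2 kb or wider.

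Because choosing regions in both WT libraries favours WT, the rule was also applied to 1 HSPC H2AK119ub library at a time and the regions were read in the other 3. From WT replicate 1 alone it gave 2708 regions, of which 29.6% were covered to 50% or more in WT replicate 2, 30.5% in KO replicate 1 and 32.8% in KO replicate 2. From WT replicate 2 alone it gave 2568 regions, with 31.8% in WT replicate 1, 26.6% in KO replicate 1 and 29.6% in KO replicate 2. Regions chosen in WT replicate 1 were thus found in the KO libraries slightly more often than in the other WT library, and those chosen in WT replicate 2 slightly less often. From KO replicate 1, 41.7% of 2524 regions were covered in KO replicate 2, and 40.4% and 33.7% in WT replicates 1 and 2. From KO replicate 2, 36.5% of 2835 were covered in KO replicate 1, and 37.1% and 32.0% in the WT replicates. Values within a genotype, 29.6% to 41.7%, overlapped those between genotypes, 26.6% to 40.4%. WT replicate 2 was the smallest of these lists, at 5.78% of the autosomes against 6.93% to 7.28% for the others. It gave the lowest value each time it was read, at 29.6%, 33.7% and 32.0%. List size was not equalized, so an order by genotype cannot be told apart from it. The 12 values share libraries and were not tested.

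**Figure D4:**
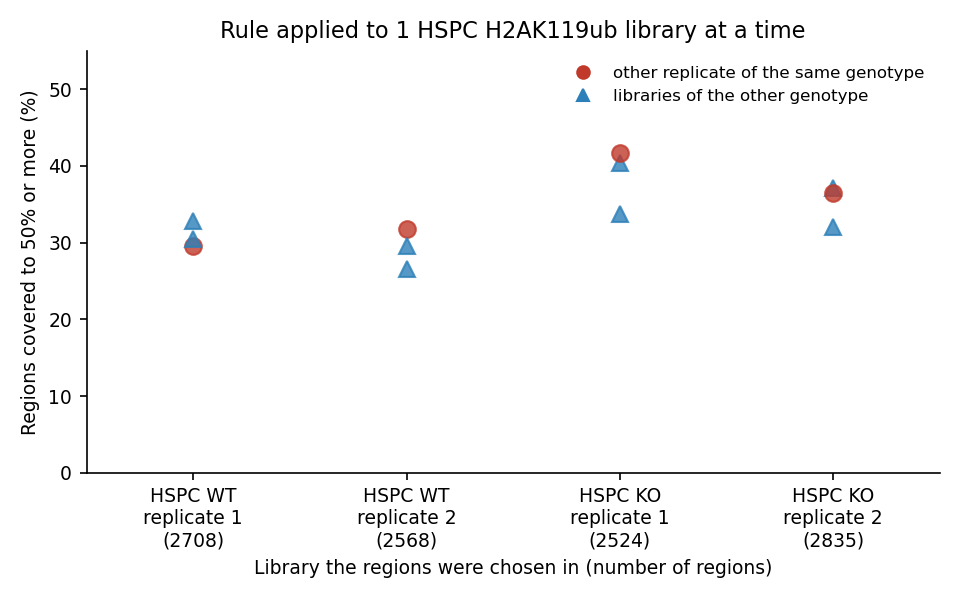
Share of regions (%) covered to 50% or more in another HSPC H2AK119ub library, when the rule was applied to the library named on the x axis alone (number of regions in brackets). Circles show the other replicate of the same genotype and triangles the libraries of the other genotype, and for each library the circle lies among or next to the triangles.

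A rule with the genotypes exchanged gave like values. With KO lists in place of WT lists it took 692 regions, of which 290 (41.9%) were covered to 50% or more in both WT libraries and 30 (4.34%) had no covered base in either. Between the 2 sets, 71 regions of the WT rule (12%) touched 71 regions of the KO rule (10.3%). The exchange also swapped the H3K27me3 and mES lists. No overlap of sets chosen within a genotype was computed as a background, so nothing about genotype is read from these shares.

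Recurrence between the WT replicates was also lowest in this class. Among intervals chosen in WT replicate 1 alone, 29.6% of the HSPC-only class recurred in WT replicate 2, against 43.6% with the mES mark alone, 46.9% with H3K27me3 alone and 66.9% with both. Chosen in WT replicate 2, the values in WT replicate 1 were 31.8%, 62.2%, 53.6% and 85.8%. These shares were not tested.

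Whether the regions lack the mark in mES cells beyond the lists of the rule can be read in the mES KO libraries. There, H2AK119ub covered 11.5% and 8.98% of the bases, 156 regions were touched in KO replicate 1 and 121 in KO replicate 2, and 67 in both. These lists covered 10.5% and 9.77% of the autosomes. That share includes sequence under WT mES peaks, which the rule kept out of the regions, so it is no equal background for them. Of the intervals with H3K27me3 but not the mES mark, 26.3% and 23.0% were touched, against 26.4% and 20.5% of the HSPC-only regions and 93.4% and 91.8% of all 24737 intervals. In total 210 regions (35.5%) were touched in at least 1 mES KO library, and 12 were covered to 50% or more in both. The label HSPC-only therefore holds for the 2 WT mES lists used, not for all 4 mES lists. A WT mES list that took no part in the choice gave like values. With mES WT replicate 1 left out of the rule, 937 regions were found, of which 36.9% were touched by that list, 38.7% by mES KO replicate 1 and 32.7% by mES KO replicate 2. With mES WT replicate 2 left out, 829 regions were found, and these values were 28.7%, 36.1% and 29.0%.

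The regions also lay near excluded peaks. The median gap to the nearest WT mES H2AK119ub peak was 1629 bp and that to the nearest WT HSPC H3K27me3 peak 3527 bp. Within 1 kb of 1 or the other lay 227 regions, and 78 were at least 5 kb from both. The share kept in both KO libraries was 38.8% for the 227, 43.7% for the 286 regions at 1 to 5 kb and 39.7% for the 78. The share without coverage in either KO library was 3.96%, 1.75% and 8.97% in the same order, the last being 7 of the 78.

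H3K27me3 covered few bases of the regions in the libraries not used to choose them. In KO HSPCs it covered 2.33% ± 0.547 (SD, n = 2) of the bases and touched 33 regions in replicate 1 and 44 in replicate 2, of which 7 were shared. These are 5.58% and 7.45% of the regions, against 559 and 615 of the 4726 intervals with the mES mark alone and 65.1% and 64.2% of all 24737 intervals. The same lists covered 7.37% and 6.81% of the autosomes, a share that includes sequence under the WT HSPC H3K27me3 peaks excluded by the rule. No region was covered to 50% in both. When WT HSPC H3K27me3 replicate 1 was left out of the rule, 14.2% of 689 regions were touched by it, against 7.11% and 8.71% in the KO libraries, and with replicate 2 left out 14.5% of 691 regions were touched, against 7.96% and 9.41%. The KO values were below the left-out WT value both times, with no test since the values share regions and lists.

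In mES cells, H3K27me3 covered 0.276% and 0.578% of the bases in WT replicates 1 and 2, and 0.361% and 0.235% in KO replicates 1 and 2. These 4 lists took no part in the rule. The rule did leave out regions with H2AK119ub in WT mES cells, whatever their mark in KO mES cells. WT mES H3K27me3 was 53.4% in intervals with both marks against 1.83% in those with H3K27me3 in HSPCs but not the mES mark. The genotypes are therefore not compared on equal terms, and nothing is read from the test. The groups overlapped, and KO minus WT was -0.129 percentage points (p = 0.667, two-sided exact permutation test over 6 assignments, n = 2 against 2). The smallest p this design allows is 0.333. Of the 591 regions, 581 had no H3K27me3 in any of the 4 libraries. Among the 10 others, the region at chr13:29989122-29990126 (nearest start E2f3) was covered to 100% in both WT libraries and KO replicate 1, and to 0% in KO replicate 2.

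**Figure D5:**
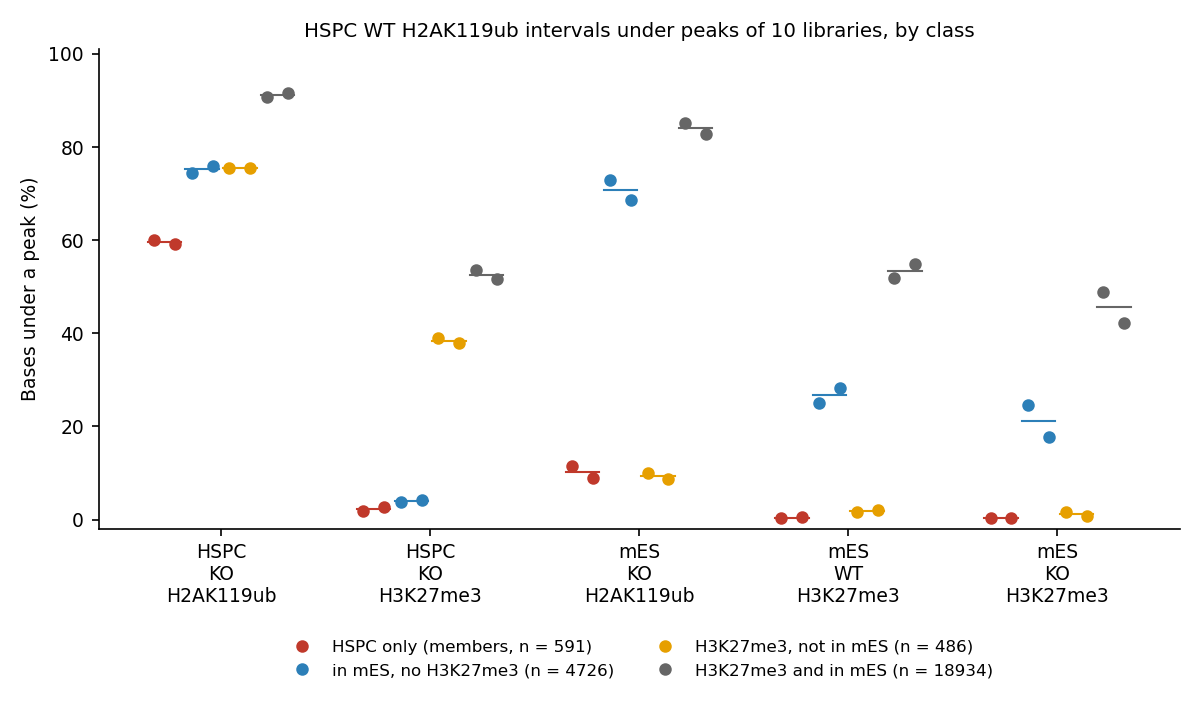
Share of bases (%) under peaks in 10 libraries of 5 groups, for the 4 classes of WT HSPC H2AK119ub intervals (points, libraries; lines, means of 2). The HSPC-only regions (red) lie at 60.0% and 59.2% in KO HSPC H2AK119ub, lowest of the 4 classes, and at most 0.578% for H3K27me3 in mES cells.

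The 5 widest regions covered over their whole length in both KO libraries, of 40 such regions, lay in Dnaaf5, an assembly factor of ciliary dynein arms (chr5:139159747-139162143), in Dot1l (chr10:80776154-80778132), in Slc35e1, a predicted nucleotide-sugar transporter gene (chr8:72487034-72489008), in Gm17949 (chr17:57019119-57020826) and in Fam102a (chr2:32542080-32543662). The Fam102a region was also under mES KO H2AK119ub, to 85.7% and 89.2%. The Slc35e1 region had none in either mES KO library.

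The 5 widest without a covered base in either KO library lay in an intron of Nadk, the NAD kinase gene (chr4:155571311-155572709), of Crebl2, a bZIP factor gene (chr6:134846478-134847856), and of Ankrd13a, which encodes a ubiquitin-binding protein (chr5:114776834-114778191), and in 2 intergenic places, chr17:36062897-36064177 near Gm11127 and chr4:11010060-11011329 near Plekhf2. The region near Gm11127 differed from the rest. Its whole length was under mES KO H2AK119ub in both libraries, and H3K27me3 in mES cells took up 49.9% and 100% of it in WT replicates 1 and 2 and all of it in both KO replicates, with excluded peaks 279 and 298 bp away. This place lies in the mouse major histocompatibility complex, which differs between strains, and the part of sequence or copy number in its values was not tested. The Nadk region was clear of excluded peaks by 6669 bp or more and had no mES KO coverage. The 21 regions without coverage comprised 10 in introns, 7 touching exons, 4 intergenic and 0 at promoters. All of them were under 1.5 kb.

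Several genes held more than 1 region. The 452 protein-coding genes with a region over their span (2.17% of 20807) included 38 with at least 2. Ubr4, which encodes a large E3 ubiquitin ligase of the N-degron pathway (chr4:139352609-139489588), held the most bases, 7615 bp in 5 regions that spread along the gene. Of these, 3 were kept in both KO libraries, 1 was covered to 74.5% in KO replicate 1 and 0% in KO replicate 2, and 1 had no coverage in either. Gm20388, an annotated gene model of over 4 Mb that spans other genes, held 6675 bp in 4 regions. Ezr, the gene of ezrin, which links actin to the plasma membrane, held 6243 bp in 3 regions, 14.0% of its span, and their KO coverage was 100% and 62.1%, 29.3% and 100%, and 100% and 98.1%. Myh9 held 4585 bp in 2 regions, and the narrower was covered to 0% and 87.9%. Dot1l, the H3K79 methyltransferase gene, held 4534 bp in 3 regions covered to 100% and 100%, 0% and 100%, and 100% and 100%. Within Ubr4, Ezr, Myh9 and Dot1l, KO coverage thus differed from region to region.

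The regions were spread over 339 windows of 1 Mb, and 215 of them were alone in their window. The window chr2:32000001-33000000 held 8 regions, in or near Fam102a, Cdk9, Slc25a25, Rpl12 and Prrc2b. A window at chr7:127000001-128000000 and one at chr17:56000001-57000000 held 7 each. Over the 4 densest windows, of which 1 is not described here, 0 to 5 of the 7 or 8 regions were kept in both KO libraries. By chromosome the density ran from 0.100 per Mb on chromosome 3 to 0.549 on chromosome 11 and 0.547 on chromosome 17. As a share of all WT intervals it ran from 0.912% on chromosome 8 to 3.39% on chromosome 5.

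None of the blood genes on the lists used here carried such a region. The lists are a choice and leave out other genes of blood cells, so this is no result about blood genes as a whole. Over all genes, a region lay at the promoter of 45 protein-coding genes (0.216%). None of the 26 haematopoietic transcription factor genes listed, such as those of GATA, RUNX and ETS proteins, had a region at the promoter or over the gene, although 19 of the 26 had another WT HSPC H2AK119ub interval of 1 kb or wider at the promoter (73.1%, against 39.1% of all genes). No region was found either at 22 genes of haematopoietic receptors and surface proteins, 23 myeloid granule and phagocyte genes, 21 erythroid and megakaryocyte genes, 20 lymphoid genes, 12 stromal and endothelial genes and 28 developmental Polycomb targets. In these 6 lists the share with another such interval at the promoter ran from 6 of 22 for the receptors (27.3%) to 21 of 28 for the Polycomb targets. With 2.17% of all genes holding a region, lists of this size hold few by that share, so 0 is no result about a single list.

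Single genes of the other lists held a region. Among 16 pluripotency genes it was Tdgf1, a Nodal co-receptor (chr9:110941537-110942970, touching an exon), covered to 50.1% and 0% in KO. Among 20 cytokine feedback and NF-kB genes it was Dusp1, a MAP kinase phosphatase (chr17:26557572-26559008, intronic), at 27.8% and 2.09%. This region lay within the annotated Dusp1 span (chr17:26505590-26562128), but the nearest start was that of Ergic1, 2481 bp away. Among 28 PRC1 and PRC2 subunit genes it was Aebp2, a PRC2 cofactor (chr6:140624012-140625332, touching an exon), at 96.5% and 43.1%. Among 13 H2A deubiquitinase genes it was Bap1, the catalytic subunit of PR-DUB that removes this mark (chr14:31257448-31258908, touching an exon), at 100% and 50.4%.

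Of 17 genes of TET enzymes, DNA methyltransferases and RNA m5C enzymes and readers, 3 held a region. Nop2, an rRNA m5C methyltransferase (chr6:125140841-125142138), was covered to 40.6% and 100% in KO. Nsun2, an RNA m5C methyltransferase (chr13:69615556-69617104), was covered to 0% and 32.3%. That region lay in an intron 81810 bp from the Nsun2 start, and the nearest start was that of Srd5a1, 4114 bp away. Alyref, an RNA export adaptor that binds m5C (chr11:120594866-120596086), was covered to 100% and 98.0%. Of these, the Alyref and Bap1 regions passed 50% in both KO libraries. The only promoter among all 13 lists was that of Tbp, the TATA-binding protein, among 18 widely expressed genes. Its region (chr17:15498999-15500008, 1010 bp) covers the shared start with Psmb1, a proteasome subunit gene, and was covered to 40.4% and 35.3% in KO, with excluded peaks 394 and 294 bp away.

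Histone, ribosomal protein and proteasome genes were picked after their values were seen. The histone genes with a region at the promoter were Hist1h4n, Hist1h4f, Hist1h1d, Hist1h4b, Hist1h2ae and Hist1h2bg, 6 of 67 autosomal genes so named (8.96%, against 0.216% of all genes), in 4 regions of chromosome 13. Any WT HSPC H2AK119ub interval of 1 kb or wider lay at the promoter of 50 of the 67 (74.6%), against 39.1% of all genes. The region at Hist1h2ae and Hist1h2bg (chr13:23570842-23572261) was covered to 100% and 78.1% in KO, that at Hist1h4f (chr13:23550658-23552740) to 74.6% and 76.6%, that at Hist1h4b (chr13:23756838-23758415) to 95.4% and 40.9%, and that at Hist1h4n (chr13:21829575-21831804) to 61.1% and 22.5%. The first 2 were kept in both KO libraries. Copies of histone genes can be near identical, so peaks among them may be uncertain, which was not tested. Over their span, 7 of 78 ribosomal protein genes held a region (8.97%), among them Rpl11, Rps9 and Rps26, and 3 of 38 proteasome genes did (7.89%), against 2.17% of all genes. At the promoter, 1 of the 78 (1.28%) and 1 of the 38 (2.63%) had a region. Any such interval lay at the promoter of 57.7% of the ribosomal protein genes and 26.3% of the proteasome genes, against 39.1% of all genes. Since the families were chosen by these values, the shares are a description.

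Of the 38 promoter regions, 20 (52.6%) passed 50% in both KO libraries, against 41.2% of regions touching exons, 41.3% of intronic and 37.4% of intergenic regions. None of the 38 lacked coverage in both. Over all 24737 intervals promoters were highest too, at 95.9% against 82.6%, 76.5% and 78.0%, and 3 of 7290 promoter intervals lacked coverage in both.

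The 6 motifs were counted in the central 1 kb of each region. AGATAA was in 31.1% of HSPC-only regions, 24.9% to 31.9% of the other classes and 50.3% of autosomal tiles of 1 kb. GAGGAAGT was in 9.64%, against 7.72% to 8.64% and 6.02% of tiles. CCGGAAG, which holds a CpG, was in 4.23%, against 7.70% to 12.1% and 2.82%. TGTGGTT was in 21.3%, against 17.2% to 21.6% and 21.5%, and TGACTCA in 15.9%, against 15.5% to 18.3% and 14.9%. CACGTG, which also holds a CpG, was in 16.6%, against 17.9% to 18.4% and 9.62%. These shares are descriptions, not matched for base composition, and 1 match is not a bound site.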

How the data were processed

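CUT&Tag peak lists of 16 mouse libraries were analysed (2 per cell type, genotype and mark), and 4 K562 lists were not used here. Per the study's methods, reads with a Drosophila spike-in were trimmed, aligned with bowtie2, freed of duplicates and called with MACS2 as broad peaks at a cutoff of 0.01. The submitters' processing notes name Trimmomatic 0.39, Bowtie2 2.4.1 and HOMER 4.9. The deposited lists hold positions only (mm10), with 1 list per library. They give no count, score or depth, so regions near the calling limit cannot be told from strong ones.

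Peaks of a list were merged, and intersections, gaps and covered bases were computed with numpy 2.4.6 (Python 3.11.15). The rule gave the same 591 regions with bedtools 2.31.1, and the interval code was tested on simulated data. Genes were those of GENCODE vM21 on GRCm38. A promoter was 1 kb on each side of a protein-coding start, and a region was kept where at least 50% was covered in both KO libraries.

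The HSPC-only regions, the 13 gene lists and the tests were chosen with earlier results of these data known. Regions named are the 10 widest, the 5 widest fully covered and the 5 widest uncovered in KO, those at promoters of listed genes, the 5 genes with most bases and the 3 densest windows (ties given), of which 1 is not reported here. The other regions of listed genes, the one near E2f3 and those of histone, ribosomal protein and proteasome genes were named after their values were seen. Genotypes were tested only for mES H3K27me3, by an exact permutation test, with a version paired by replicate number as an alternative. Whether equal numbers mark a shared batch is not given in the labels.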

Additional observations from a re-analysis of the deposited data

How the results depend on the processing

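The number of regions depended on the rule. It was 4878 at a minimum width of 500 bp and 49 at 2 kb, 4804 when a peak in either WT replicate sufficed, 369 when exclusion was tested on whole H2AK119ub peaks and 364 when it reached 1 kb further. Leaving out 1 list of the rule gave 689 to 2708 regions: 2568 and 2708 without an HSPC WT H2AK119ub replicate, 937 without mES WT H2AK119ub replicate 1 and 829 without replicate 2. The KO-rule count fell from 692 to 54 at 2 kb.

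The share of bases under KO H2AK119ub was 66.7% at 2 kb and 60.1% with the 1 kb exclusion, and 59.2% to 60.0% with 1 KO library. The share of regions kept in both KO libraries was 55.1% at 2 kb, 19.6% when 80% coverage was asked, 77.0% for 1 bp, and 57.9% to 61.1% when 1 KO library was read. The share without coverage was 0% at 2 kb and 12.9% to 13.7% with 1 KO library. In settings added after the data were seen, it was 5.54% at 1 to 1.25 kb. The promoter share was 15.4% within 2 kb, 12.9% for all annotated genes, 12.2% at 2 kb width and 3.73% to 4.40% with 1 WT library.

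For mES H3K27me3, KO minus WT ran from -0.280 to 0.0216 percentage points with 1 library left out, positive without WT replicate 2, and was 0 at 2 kb, where no library had coverage. Without chromosomes 6 and 13 it was -0.0731. In the version paired by replicate number (replicate block), it was -0.129 with p = 1.00 (exact test over 4 sign arrangements, smallest possible p 0.5). Since p cannot fall below 0.333 here, these p-values say nothing about stability. The cause of each shift was not tested. In 18 of all 45 settings, those already given included, the value stayed close to the main one. Close meant counts within 1.5 times, shares of regions within a 95% binomial interval, base shares within the replicate SD, and differences of equal sign. That interval treats regions as independent replicates, which they are not, so the tally is a description and no measure of stability. Peak lists without counts limit every value to whether a peak was called.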
